A study of Homo sapiens with 4 samples.

Results

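The genes described here were chosen by name, and most encode core proteins of the spliceosome. They are the SNRP genes of the small nuclear ribonucleoproteins, the SF3A and SF3B subunits, the PRPF pre-mRNA processing factors, the LSM proteins and U2AF. The name patterns also took in a pseudogene (SNRPD2P2), LSM10 and LSM11 of the U7 ribonucleoprotein and LSM1 of a cytoplasmic ring. A gene entered when its symbol followed 1 of these patterns and the array held a probe set assigned to that symbol alone. This gave 43 members among 18132 genes. The symbols U2AF1, SNRPN and LSM8 occur only on probe sets that the platform table assigns to several genes, 9 such probe sets matched the name patterns in all, and their values were not used.

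The cells were U87MG, an established human glioblastoma line, grown in DMEM with serum. Control cells received DMSO. The others received mycophenolic acid (MPA) at 10 µM, guanosine at 100 µM, or the 2 compounds together at these doses, and RNA was taken at 24 h. Each condition was read on 1 PrimeView array, an Affymetrix design for mRNA, and the values are linear RMA signals. With 1 array per condition there is no spread between cultures, no test and no p-value, and every difference below is between 2 arrays.

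MPA inhibits IMP dehydrogenase, the enzyme that leads from IMP to guanine nucleotides, while guanosine can be turned into guanine nucleotides by salvage. The spliceosome removes introns from pre-mRNA and is built anew on each intron from U1, U2, U4, U5 and U6 ribonucleoproteins. A ring of Sm proteins sits on U1, U2, U4 and U5 RNA, and a ring of LSM proteins sits on U6 RNA. U1 and U2AF mark the ends of the intron, SF3A and SF3B hold U2 on the branch point, and the U4/U6.U5 tri-snRNP brings the PRPF proteins that prepare the catalytic core.

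The regulatory sequence of the members was looked at first, as a description. Whether it bears on the differences between arrays was not tested. RefSeq promoter windows (GRCh38.p14, 250 bases before to 50 after the start) matched 35 of the 41 members that were bright enough to compare. Those without an entry were SNRPD1, SF3B3, LSM6, PRPF3, LSM1 and PRPF39. The letters CCGGAAGT, a core that ETS-family factors can bind, occurred on either strand in 12 of the 35 windows (34.3%), against 8.85% of the 9258 windows of all genes compared and 4.44% of the 27305 in the table. The E-box CACGTG, the NRF1 motif and the TATA box (letters TATAAA), also searched on both strands, each occurred in 1 of the 35 (2.86%). Their shares over the genes compared were 10.3%, 2.38% and 5.91%. No member window held more than 1 of the 4 motifs (0 of 35), and a match is a description of letters.

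The 12 stretches of 30 bases around the match are shown because it was the motif most frequent in the members. Each is written 5′ to 3′ on the gene's strand, with the match in capitals; the order is that of the MPA difference, lowest first.
SNRPB (chr20:2470812-2470841, minus): agtgagctggaCCGGAAGTaggtttctacc
U2AF2 (chr19:55654994-55655023, plus): gccggcggcggCCGGAAGTagccgaagcca
SF3B2 (chr11:66052300-66052329, plus): atacggcgccaCCGGAAGTtccggcaagtg
SNRPA1 (chr15:101295344-101295373, minus): cgcgcgccacgACTTCCGGcaagaacgccc
SF3A1 (chr22:30356925-30356954, minus): aggggacggtcCCGGAAGTgcgccagtcgt
SF3A2 (chr19:2236804-2236833, plus): tctcatttgccCCGGAAGTgctttctttgc
LSM5 (chr7:32490362-32490391, minus): gaaggcaggccACTTCCGGcgtagccatgg
SF3A3 (chr1:37990073-37990102, minus): agtcccggggcACTTCCGGcactcgcggaa
PRPF6 (chr20:63981015-63981044, plus): cctagccgcggCCGGAAGTcgtcgaaccag
SNRPE (chr1:203861597-203861626, plus): ttctttattCCGGAAGTtgctctcagaggc
SF3B4 (chr1:149927811-149927840, minus): ccgtcttcgccCCGGAAGTggaagtcgtgc
SF3B6 (chr2:24076467-24076496, minus): cggtacagagcCCGGAAGTgtcttggactc

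Counted from the start site, the match began between position -241 (SNRPE) and position 1 (LSM5). In SNRPA1, LSM5 and SF3A3 it lies in the reverse direction. All 3 subunits of SF3A carry it, and 3 of the SF3B subunits. The 12 members with a match had a median log2 difference of -0.33 between MPA and control, with 12 of 12 lower (after cyclic loess SF3B6 was not). The 23 without had a median of -0.14, with 18 lower (after cyclic loess SF3B1, PRPF31, PRPF18 and PRPF38A of these were not). SNRPD1 and SF3B3, which have no window, are in neither set, and PRPF4, the lowest member compared, is in the set without a match. Over all genes compared, the 819 with a match had a median of -0.06 (60.2% lower) and the 8439 without a match 0.01 (49.0% lower). These are descriptions of 2 arrays with no test.

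The members at the ends of the MPA range that have a window, PRPF4 and PRPF40B, hold none of the 4 motifs in the 250 bases before the start. Both are shown as the ends of that range. The search took exact letters only, so shorter or variant ETS sites were not looked for. The PRPF4 stretch does hold acttcc, the start of the reversed match ACTTCCGG. PRPF40B has a GC content of 82.0% there and PRPF4 of 60.4%.
PRPF4 (chr9:113275408-113275657, plus): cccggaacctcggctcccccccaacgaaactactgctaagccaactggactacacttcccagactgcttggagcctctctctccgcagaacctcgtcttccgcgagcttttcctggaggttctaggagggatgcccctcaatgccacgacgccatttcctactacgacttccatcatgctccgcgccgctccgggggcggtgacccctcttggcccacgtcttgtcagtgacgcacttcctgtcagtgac
PRPF40B (chr12:49623311-49623560, plus): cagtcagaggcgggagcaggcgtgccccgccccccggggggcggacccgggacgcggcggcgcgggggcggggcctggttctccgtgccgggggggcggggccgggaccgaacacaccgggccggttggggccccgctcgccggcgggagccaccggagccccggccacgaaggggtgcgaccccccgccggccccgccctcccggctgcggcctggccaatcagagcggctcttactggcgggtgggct

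Before the members' values, the arrays themselves. The median signal of all probe sets was 61.8 to 64.5, and log2 values of pairs of arrays correlated at 0.988 to 0.998, lowest between MPA and the combined treatment. CDKN1A, a p53 target, had signals of 1649 in the control, 4961 with MPA, 1373 with guanosine and 1412 with both, so the MPA array stood apart. IMPDH2, which encodes the main target of MPA, was at 7120, 9168, 4067 and 4228 in the same order. Of 8 glial and mesenchymal glioma markers, 7 were at or above the dim floor of 63.0 on all 4 arrays, with GFAP faint at 106 to 137 and S100B below the floor. No leukocyte, oligodendrocyte or epithelial marker passed on all arrays (0 each), and SNAP25, SYT1 and VWF did. The summed signal of the 8 glioma markers, most of it from VIM and FN1, was 38358 to 39064, but single markers stood apart on the MPA array: CHI3L1 was at 1932 there against 1158 to 1201 on the others, and NES at 142 against 192 to 221. The 3 neuron markers summed to 2022 with MPA against 1275 to 1406, mostly SNAP25 (1867 against 1144 to 1265). The 4 epithelial markers summed to 249 against 193 to 213, with EPCAM at 102 against 52.9 to 55.5, and the 3 endothelial ones to 213 against 157 to 182. Leukocyte markers summed to 86 to 102 and oligodendrocyte markers to 81 to 89 on the 4 arrays. The part of these marker differences in the values below was not tested. The 12 poly-A spike-in probe sets, which read transcripts added to the RNA, had a median log2 difference of -0.29 between MPA and control, and 12 of 12 were lower. They were higher with guanosine (0.22) and with both compounds (0.27). In MPA against guanosine their median was -0.50, with 12 of 12 lower. In both compounds against MPA it was 0.60, with 0 of 12 lower. The 18 hybridisation spike-ins differed by a median of -0.03 with MPA. The part of the spike-in shift in the values below was not tested.

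A gene was compared where the brighter of its 2 arrays reached the floor, the median of all non-control values. All 4 arrays reached it for 41 members, and 2 members lay below it on every array. These were the pseudogene SNRPD2P2, at 25.0 to 29.4, and LSM11 of the U7 ribonucleoprotein, which processes histone mRNA ends, at 59.7 in the control, 30.3 with MPA, 42.0 with guanosine and 53.8 with the combination. Probe sets whose names end in _x_at or _s_at can bind related transcripts and processed pseudogenes; they stand for 10 and 11 of the 41 members, and a share of signal from such copies cannot be told apart.

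With MPA alone, most members had a slightly lower signal than in the control. Of 41 members, 36 were lower (87.8%), where 49.1% of the 11204 genes compared were lower. The member median was -0.21 on the log2 scale, against 0.01 for all genes, and the middle range of the members ran from -0.36 to -0.06 (quartiles). Brighter genes as a whole were also lower more often than higher. With the floor raised to 244, 56.2% of 6697 genes were lower, with a median of -0.05. Of the members, 33 of 37 were lower there, with a median of -0.22. At the main floor the member median stayed below 0 when the arrays were rescaled. It was -0.15 with 31 of 41 lower after cyclic loess (45.1% of all genes were) and -0.16 with 33 lower after centring each array (42.3%). Differences of 1.5-fold were not more frequent than elsewhere: 3 members were at least 1.5-fold lower (7.32%, against 7.31% of all genes) and 0 were at least 1.5-fold higher (5.31% of all genes); after either rescaling 2 were lower, SF3B3 being under 1.5-fold, and after centring 1 (PRPF40B) was higher. At a smaller ratio, of 5 to 4, there were 14 lower (34.1%, against 18.3%) and 1 higher (2.44%, against 14.7%). In RNA from whole cultures, less RNA per cell and a lower share of cells expressing a gene cannot be told apart.

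**Figure D1:**
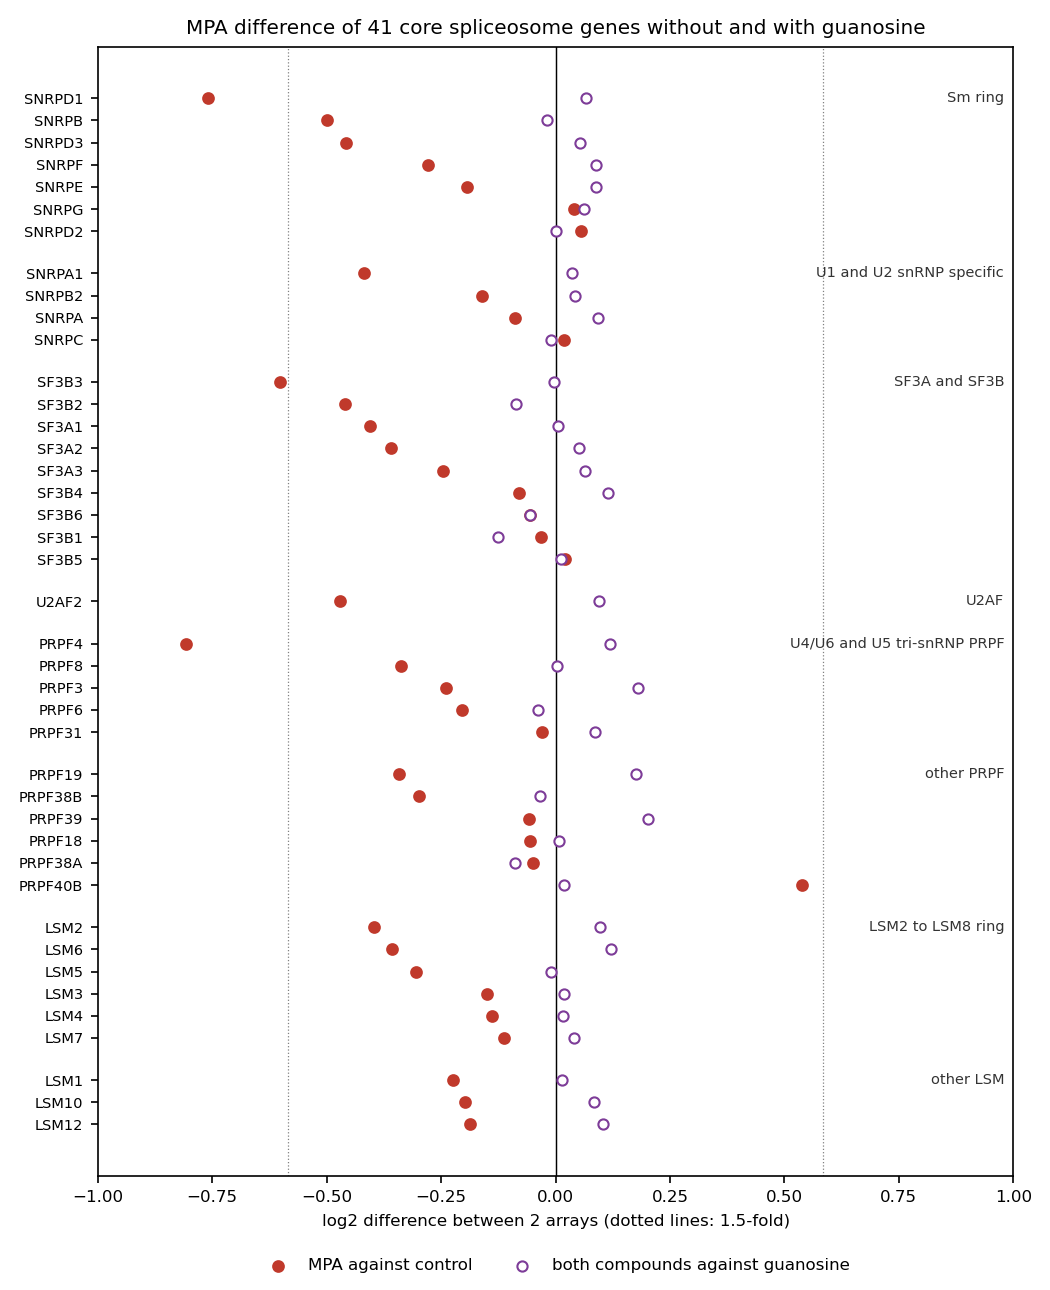
Log2 difference between 2 arrays (x axis) for the 41 members (rows, grouped by role): filled points are MPA against control, open points both compounds against guanosine, and dotted lines mark 1.5-fold. Filled points lie left of 0 for 36 members and reach -0.81 (PRPF4), while open points lie between -0.13 and 0.20.

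The Sm ring was uneven. SNRPD1, an Sm core protein, had signals of 1787 in the control, 1055 with MPA, 1622 with guanosine and 1698 with both compounds. The MPA array is the low one, and the other 3 lie close together; the log2 difference of MPA from control is -0.76, or 1.69-fold lower. SNRPB, which encodes the SmB and SmB′ proteins, was at 2698, 1909, 2599 and 2565 in the same order, a difference of -0.50. Its partner SNRPD3 was at 3026, 2204, 2702 and 2802 (-0.46). SNRPF (-0.28) and SNRPE (-0.19) were lower by less. The remaining ring genes did not share this: SNRPG was at 6784, 6979, 6375 and 6657, and SNRPD2 at 6233, 6478, 6596 and 6602. For these last genes the MPA signal on the probe set used lies inside or above the range of the others. A dimmer probe set of SNRPG above the floor differed by -0.14. Over the 7 ring genes the median was -0.28, with 5 lower and 1 of them past 1.5-fold.

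Proteins specific to U1 and U2 had a median of -0.12 over 4 genes (-0.05 after cyclic loess, -0.08 after centring). SNRPA1, the U2-A′ protein, was at 2788 in the control, 2086 with MPA, 2392 with guanosine and 2454 with both, so the control array is the highest and MPA the lowest (-0.42). SNRPB2, its U2 partner, differed by -0.16. The U1 genes SNRPA and SNRPC differed by -0.09 and 0.02. SNRPA was at 631, 593, 551 and 588, lowest with guanosine. SNRPC was at 2485, 2515, 2238 and 2224, which places both guanosine-treated cultures below the other pair.

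SF3A and SF3B, the complexes that anchor U2 at the branch point, had 8 of 9 genes lower with MPA (6 after cyclic loess, 7 after centring) and a median of -0.25. SF3B3 was at 463 in the control, 305 with MPA, 386 with guanosine and 385 with both, a difference of -0.60 or 1.52-fold that was under 1.5-fold after cyclic loess (-0.53) and after centring (-0.55). Here the guanosine-containing cultures lie between the control and MPA (-0.26 and -0.27 from control). SF3B2 (-0.46), SF3A1 (-0.41), SF3A2 (-0.36) and SF3A3 (-0.25) followed. SF3B1, the subunit that cradles the branch point and is often mutated in blood cancers, was at 2149, 2102, 2390 and 2191, a difference of -0.03 that became 0.04 after cyclic loess and 0.02 after centring the arrays. The small subunit gene SF3B6 differed by -0.06. SF3B5, another small subunit, was at 0.02 on its brighter probe set and at 0.31 on the other. U2AF2, the large U2AF subunit that binds the polypyrimidine tract, was at 2520, 1817, 2378 and 2538, with MPA the low array (-0.47). A dimmer probe set of U2AF2 above the floor differed by -0.10.

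All 5 tri-snRNP genes were lower with MPA, or 4 after either rescaling, where PRPF31 was not, with a median of -0.24. PRPF4, a U4/U6 protein, was the lowest member, at 962 in the control, 549 with MPA, 873 with guanosine and 949 with both. Its log2 difference is -0.81, 1.75-fold lower, and the 3 arrays without MPA alone span 873 to 962. PRPF8, the large U5 protein at the heart of the catalytic core, was at 1423, 1126, 1360 and 1363 (-0.34). PRPF3 (-0.24), another U4/U6 protein, and PRPF6 (-0.21), which bridges U5 and U4/U6, were lower by less. PRPF31, a tri-snRNP gene mutated in a form of retinitis pigmentosa, was at 703, 689, 635 and 674. Its difference of -0.03 turned to 0.05 after cyclic loess and 0.02 after centring.

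**Figure D2:**
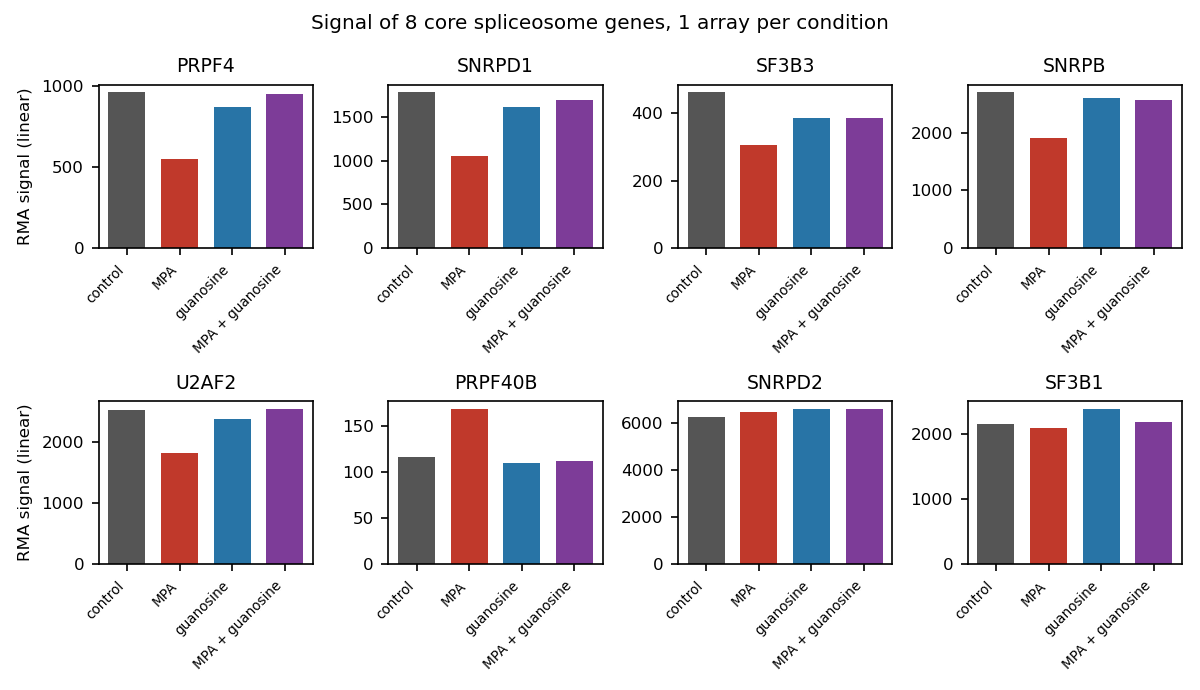
Linear RMA signal (y axis, starting at 0) of 8 members on the control, MPA, guanosine and combined arrays, 1 bar per array and no error bars because there are no replicates. PRPF4, SNRPD1, SF3B3, SNRPB and U2AF2 have their lowest bar with MPA, PRPF40B its highest (169 against 110 to 117), and SNRPD2 stays between 6233 and 6602.

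The other PRPF genes were mixed, with a median of -0.06 over 6 and 5 lower (-0.03 and 3 lower after cyclic loess, -0.007 and 4 lower after centring). PRPF19, the ubiquitin ligase that names the Prp19 complex, was at 764 in the control, 603 with MPA, 618 with guanosine and 698 with both compounds. The MPA and guanosine arrays are both low here, so the difference of -0.34 from control was -0.04 against guanosine. PRPF38B was at 487, 396, 540 and 528 (-0.30), and PRPF18, PRPF38A and PRPF39 lay between -0.06 and -0.05. A dimmer probe set of PRPF38A above the floor differed by -0.40. PRPF40B, related to the yeast U1 protein Prp40, was the exception among all members, at 117, 169, 110 and 112. Only its MPA array is high; the difference is 0.54, or 1.45-fold, from a dim gene with 1 probe set.

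All 6 measured genes of the LSM ring of U6 RNA were lower with MPA, by 0.11 (LSM7) to 0.40 (LSM2) on the log2 scale, and 0 of them passed 1.5-fold. LSM2 was at 804 in the control, 611 with MPA, 681 with guanosine and 729 with both. LSM6 was at 1674, 1306, 1632 and 1774 (-0.36). LSM5 (-0.30), LSM3 (-0.15) and LSM4 (-0.14) were nearer to the control. LSM1, which replaces LSM8 in the cytoplasmic ring that serves mRNA decay, differed by -0.22. LSM10, the partner of LSM11 in U7, differed by -0.20, and LSM12 by -0.19.

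Most of the genes could be read more than once, since 28 of the 41 had 2 or more probe sets above the floor. In 23 of these every probe set was lower with MPA, a share that was not counted over all genes. In 1 (SNRPA1) a probe set was at 0.00 beside lower ones, in 3 (SF3A1, SNRPC and SNRPG) the signs were mixed, and in 1 (SF3B5) both were higher. Over the 96 member probe sets above the floor, 88 were lower, with a median of -0.20. Among all 23970 probe sets above the floor with a lone symbol, 51.9% were lower and the median was -0.02. The 3 probe sets of PRPF4 ran from -1.50 to -0.81, those of SNRPD1 from -0.76 to -0.62 and the 7 of SNRPB from -0.71 to -0.28. For SF3B3 they were at -0.90 and -0.60. LSM12 had its brightest probe set at the upper end of a range of -0.70 to -0.19. Probe sets of a gene share the same RNA and are not replicates.

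**Figure D3:**
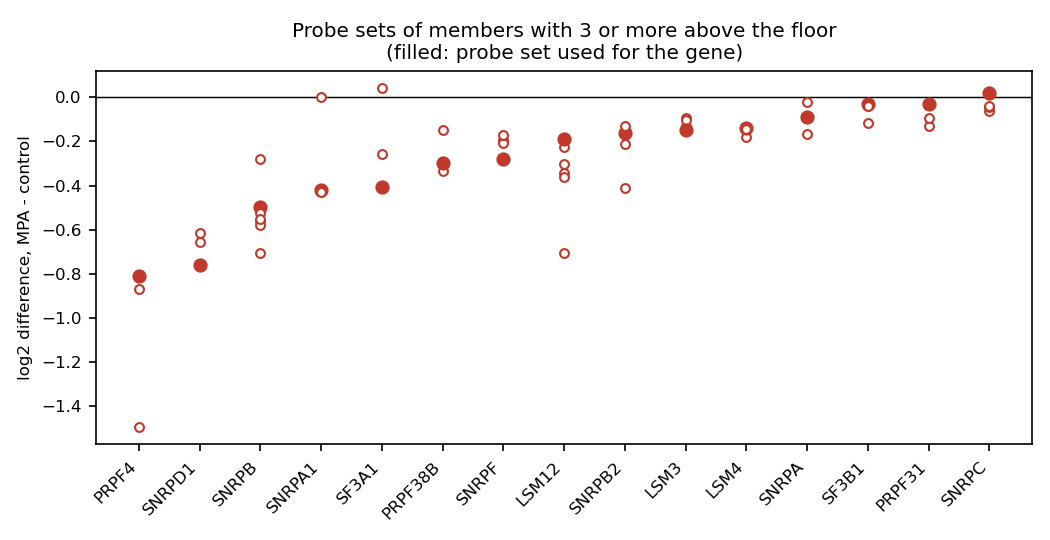
Log2 difference of MPA against control (y axis) for each probe set above the floor, for the 15 members with 3 or more (x axis, ordered by the probe set used for the gene, filled). The 3 PRPF4 probe sets lie between -1.50 and -0.81, and SF3A1 has a probe set at 0.04.

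Guanosine alone and the combined treatment left smaller differences from the control. With guanosine, 33 of 41 members were lower than the control (80.5%, against 50.3% of 10919 genes), with a median of -0.08 and a range of -0.31 (PRPF19) to 0.15 (SF3B1). None was 1.5-fold different (0 lower, 0 higher; 0.110% and 0.339% of all genes were). With both compounds 32 were lower (78.0%, against 45.7% of 10931 genes), the median was -0.06, and the range ran from -0.27 (SF3B3) to 0.28 (PRPF39); 0 passed 1.5-fold in either direction, and 0.137% and 0.421% of all genes did. After centring the last median was -0.10, with 35 lower (58.9% of all genes). These comparisons and that of MPA share the control array. On it, 27 of 41 members had their highest value of the 4 arrays (65.9%, against 20.7% of 11272 genes), and on the MPA array 31 had their lowest (75.6%, against 41.7%).

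MPA against guanosine does not use the control array. It reuses the MPA array, so a deviation of that array alone would give the same sign as in MPA against control. There 35 of 41 members were lower with MPA (85.4%, against 49.7% of 11206 genes), and the median was -0.12, against 0.00 for all genes. PRPF4 (-0.67) and SNRPD1 (-0.62) were at least 1.5-fold lower, 4.88% of members against 7.50% of all genes; at a ratio of 5 to 4, 8 members were lower (19.5%, against 20.1%). PRPF40B was 1.54-fold higher, at 0.62 (2.44%, against 5.11%). SNRPB differed by -0.44, PRPF38B by -0.45, SF3B2 by -0.42 and U2AF2 by -0.39. The members higher with MPA besides PRPF40B were SNRPC (0.17), SNRPG (0.13), PRPF31 (0.12), SNRPA (0.11) and SF3B4 (0.10). With the floor raised to 244, 31 of 35 members and 58.2% of 6738 genes were lower, with medians of -0.12 and -0.06. At the main floor, after cyclic loess, the member median was -0.05 with 25 of 41 lower (44.2% of all genes). There 0 members were 1.5-fold lower (6.03%). After centring the median was -0.05 with 28 lower (41.9%); 1 member was 1.5-fold lower (5.78%) and 1 higher.

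Both compounds against guanosine gives the MPA difference in the presence of guanosine, from a pair of arrays that the first comparison did not use. The member median was 0.04, against 0.02 for all genes, and 10 of 41 were lower (24.4%, against 40.9% of 10861 genes). After cyclic loess 14 were lower (45.4% of all genes) with a median of 0.03, and after centring 19 (58.3%) with a median of 0.007. The values lay between -0.13 (SF3B1) and 0.20 (PRPF39), and 0 members passed 1.5-fold in either direction (0.0184% of all genes were 1.5-fold lower and 0 higher). PRPF4 differed by 0.12, SNRPD1 by 0.07, SNRPB by -0.02, U2AF2 by 0.09 and PRPF40B by 0.02. SF3B3 was at 386 without and 385 with MPA (-0.004). The size of the MPA difference was larger without guanosine for 33 of the 41 members. This was not counted over all genes. Their quartiles were -0.235 and 0.203 in MPA against control and -0.036 and 0.071 here, so a narrower spread was not particular to the members. Across these 41 genes the values of both comparisons had r = -0.14 and Spearman's rho = -0.15, as a description; across 10793 genes r was -0.01.

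**Figure D4:**
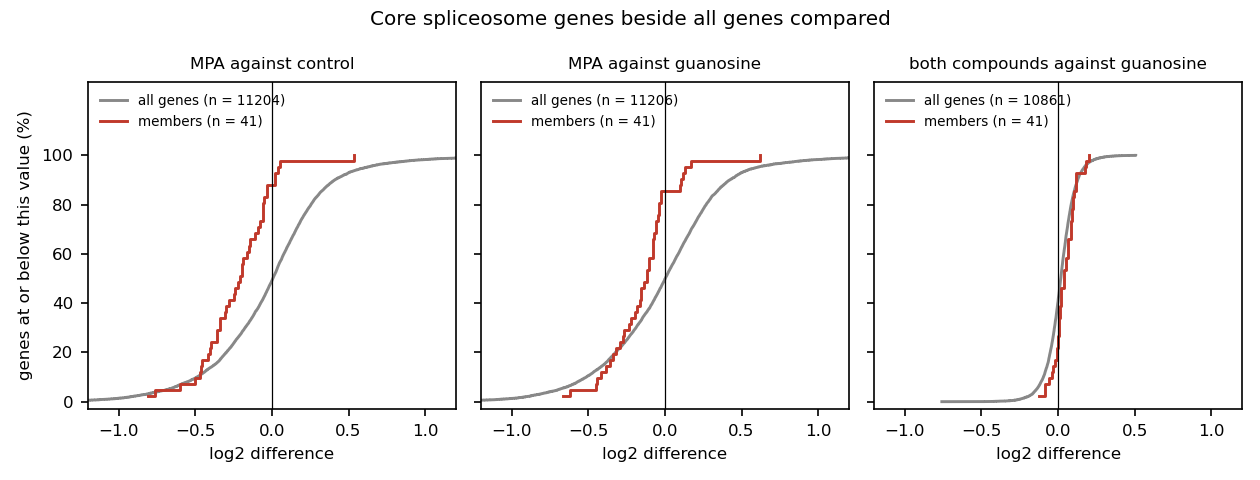
Cumulative share of genes (y axis, percent) at or below each log2 difference (x axis) for the 41 members (red) and all genes compared (grey) in 3 comparisons. For MPA against control and against guanosine the red line is left of the grey one through the middle of the range and meets it near the lower end; with guanosine in both cultures the medians are 0.04 and 0.02.

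Adding guanosine to MPA-treated cells was compared with MPA alone; this reuses the MPA array, so a deviation of that array alone would give opposite signs here and in MPA against control. Here 34 of 41 members were higher with guanosine added (82.9%, against 51.8% of 11215 genes), with a median of 0.20, against 0.02. With the floor raised to 244, 6 of 35 members and 39.4% of 6769 genes were lower, with medians of 0.17 and 0.08. At the main floor, rescaling lowered the member median to 0.10. It left 13 members lower in place of 7 after cyclic loess (54.5% of all genes) and 14 after centring (59.7%). PRPF4 (0.79) and SNRPD1 (0.69) were at least 1.5-fold higher (4.88%, against 8.47%; at a ratio of 5 to 4, 11 members or 26.8%, against 21.6%), and PRPF40B was at least 1.5-fold lower (-0.60; 2.44%, against 4.77%). U2AF2 differed by 0.48, LSM6 by 0.44, SNRPB by 0.43 and PRPF38B by 0.42. SNRPC was the only other member past 0.1 in the lower direction, at -0.18.

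Splicing genes outside the name patterns were read from 4 lists. Of 83 compared, 65 were lower with MPA than in the control, with a median of -0.21. Of all genes compared, 49.1% were lower, and this share also stands beside the counts lower in each list below. At least 1.5-fold lower were 7 and higher 0, beside 7.31% and 5.31% of all genes. The list of other snRNP proteins had 24 of 31 lower and a median of -0.29. Its lowest gene, SNRNP40 of the U5 particle, was at 540 in the control, 287 with MPA, 468 with guanosine and 464 with both (-0.91); its highest, RNPC3 of the minor spliceosome, was at 210, 303, 227 and 249 (0.53). The list of Prp19 complex, catalytic step and further splicing factors was nearer to 0. It had 21 of 27 lower, a median of -0.05 and 0 past 1.5-fold, from WBP11 (-0.40) to SMU1 (0.15). The exon junction core had 4 of 5 lower and a median of -0.40, with MAGOHB at 640, 376, 597 and 640 (-0.77) and CASC3 at 0.01. In the list of snRNP assembly and transport, which holds the machinery that loads Sm rings onto RNA, 16 of 20 were lower with a median of -0.28. Its lowest gene was GEMIN4 of the SMN complex, at 479, 262, 447 and 422 (-0.87), and its highest MEPCE, the capping enzyme of 7SK RNA, at 450, 635, 395 and 398 (0.50). In both compounds against guanosine these 83 genes had a median of 0.02, with 31 lower, beside 40.9% of all genes.

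**Figure D5:**
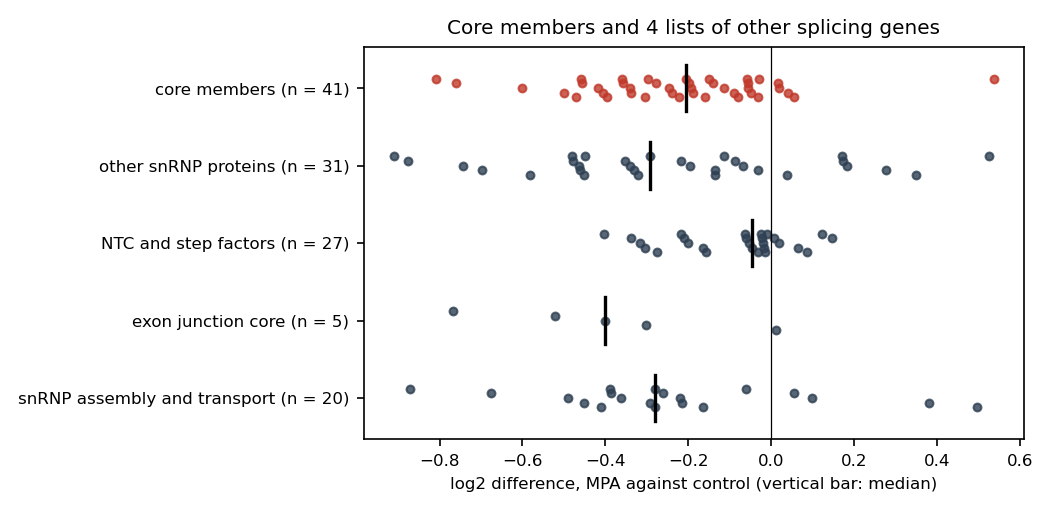
Log2 difference of MPA against control (x axis) for each gene of the 41 core members (red) and of 4 lists of other splicing genes (dark points; vertical offsets only separate points), with vertical bars at the medians. The medians are -0.21, -0.29, -0.05, -0.40 and -0.28 from top to bottom.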

How the data were processed

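Total RNA of 4 U87MG cultures was read on PrimeView arrays. Per the labels, the deposited values are RMA signals, here linear intensity values; the sources used here name no software, version or settings. RMA includes quantile normalisation, so a change in total mRNA per cell would not be seen. The log2 of each value was taken. Of 49395 probe sets, 44988 had 1 symbol and were no control, 1832 had several and 2569 were not listed; of 102 controls, 96 are among those not listed and 6 had 1 symbol. A gene was its probe set with the highest mean log2 value. The floor was 63.0 (5.98 on the log2 scale), and calls were made at 1.5-fold. Promoter sequences came from a RefSeq table (GRCh38.p14). Counting was tested on simulated data with known changes. Tools were pandas 2.3.3, numpy 2.4.6, matplotlib 3.10.9 and limma 3.58.1 in R 4.3.3 for cyclic loess.

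The members and lists were chosen with earlier results of these data known. Named members are those 1.5-fold different in any comparison, the highest and lowest of each role, and a fixed set; further members were named after their values were seen. Alternatives were no floor, a higher floor (75th percentile, 244), the median over each gene's probe sets, _x_at probe sets last, cyclic loess (3 iterations), centred arrays and a lower fold.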

Additional observations from a re-analysis of the deposited data

Results flagged for a closer look

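The member median of the MPA difference was -0.21 without guanosine and 0.040 with it, on opposite sides of 0; after centring the arrays the second was 0.0072, with 19 of 41 members lower. PRPF4 had -0.81 and 0.12, and SNRPD1 had -0.76 and 0.066. The guanosine difference also had opposite signs without and with MPA. The member median was -0.082 and 0.20, PRPF4 had -0.14 and 0.79, and SNRPD1 had -0.14 and 0.69. For a single gene the change between settings is the same number in both readings, so this is no second result. Each condition has 1 array, so these differences between settings were not tested.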

How the results depend on the processing

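Of 120 recomputed group values, 109 stayed within 0.10 of the reported median (the SD over genes of both compounds against guanosine) or within 1.5 times the reported count. With the arrays centred on the median gene, 1 member (PRPF40B) was at least 1.5-fold higher in MPA against control in place of 0, beside 2 lower in place of 3, and 1 was lower in MPA against guanosine in place of 2. Cyclic loess left 0 lower in MPA against guanosine. Taking the median over each gene's probe sets gave 1 lower there, and 1 higher in both compounds against MPA in place of 2. With the floor at the 75th percentile, PRPF40B was not compared with guanosine or with both compounds, which left 0 higher in MPA against guanosine and 0 lower in both compounds against MPA; this follows from fewer genes compared. At a ratio of 5 to 4, MPA against control had 14 lower and 1 higher (18.3% and 14.7% of all genes), both compounds against MPA 11 higher, and MPA against guanosine 8 lower. The cause of the other shifts was not tested. In MPA against control the member median ran from -0.22 to -0.15 over the alternatives, with 31 (cyclic loess, of 41) to 38 (median of probe sets, of 41) members lower. Among 19 named members, 71 of 76 recomputed values moved by less than 0.10, and 6 values near 0 changed sign. No paired analysis was possible because each condition has 1 array. Precision is limited by having 4 arrays.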
